A study of Mus musculus with 6 samples.

Results

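The insulin-like growth factor (IGF) ligands, receptors and binding proteins were followed in bulk RNA-seq of fibroadipogenic progenitors (FAPs), the mesenchymal cells of skeletal muscle that can become fibroblasts or adipocytes. The 10 genes were taken by name, with no measured value in the rule, although earlier results of these data were known when the family was picked: the ligands Igf1 and Igf2, the receptors Igf1r and Igf2r, and the binding proteins Igfbp2, Igfbp3, Igfbp4, Igfbp5, Igfbp6 and Igfbp7. All 10 were among the 16895 genes listed and among the 14777 tested, and none had under 0.5 CPM (reads of a gene relative to the scaled size of its library, as edgeR gives them) in any library. Primary FAPs were isolated from limb muscles of young adult C57BL/6 mice, of both sexes, and sorted by magnetic beads as CD45-, CD31-, α7-integrin- and SCA-1+ cells. The 3 control libraries are from non-senescent FAPs, and the 3 senescent libraries are from FAPs given 20 μM etoposide, a topoisomerase poison that breaks DNA, for 48 h and then normal medium for 5 days. All cultures were grown at low oxygen with serum, which itself carries IGFs, and with basic fibroblast growth factor. The sources used here do not say whether the libraries of a group came from separate animals. The p-values below therefore measure the spread between these libraries, which may not be that between animals. Nor do the sources say whether control and senescent libraries with the same replicate number share an animal or a preparation.

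IGF1 and IGF2 are small secreted relatives of insulin. Both act through the receptor tyrosine kinase IGF1R, which feeds the PI3K-AKT and ERK pathways and promotes growth, survival and, in muscle, myofiber hypertrophy and satellite cell proliferation. IGF2R, also known as the cation-independent mannose 6-phosphate receptor, takes up IGF2 for degradation and sorts lysosomal enzymes. Most IGF outside cells is held by binding proteins, which compete with the receptor for the ligand and release it when proteases such as PAPP-A cleave them. Several binding proteins are also known as secreted products of senescent cells.

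Genes received 41415072 to 59915575 reads per library, so 1 read was worth 0.0167 to 0.0225 CPM, and the members had from 234 (Igf2) to 167418 (Igfbp4) reads in a library. The FAP label was checked against 12 markers, all of which were listed, with Pdgfra at 126 to 254 CPM and Ly6a, which encodes SCA-1, at 220 to 678 CPM. The markers themselves moved in both directions, 5 of 12 being higher and 2 lower in senescent FAPs. Among them, Lum, which was low in control FAPs, had 0.535 ± 0.390 CPM in control and 3.39 ± 0.216 in senescent FAPs, Dcn 62.3 ± 33.6 and 197 ± 21.2, Cd34 22.5 ± 3.97 and 70.1 ± 17.4, Cd248 773 ± 186 and 497 ± 47.7, and Col1a1 15545 ± 5576 and 3116 ± 876 CPM (SD, n = 3 each). Cultures with replicate number 1 stood apart in both groups for Thy1, with 489 and 615 CPM in control and senescent replicate 1. The other 4 libraries had 41.3 to 73.6 CPM. Over genes in general, control replicate 2 differed most in its group (chi-square per gene between library pairs 108 and 154.5, against 43.04). Among senescent libraries it was replicate 1 (45.79 and 50.46, against 15.12). Markers of other cells were low against Pdgfra and Ly6a, but their sums were of the order of the CPM of Igf2 and Igfbp5 or above. The 7 leukocyte markers listed of 12 summed to 11.1 to 14.4 CPM in control and 27.4 to 33.7 CPM in senescent FAPs. Itgam was at 0 reads in control replicates 2 and 3 and at 0.516 to 0.837 CPM in the senescent libraries. The other leukocyte markers, Ptprc, Tyrobp and Adgre1 among them, were not analysed here. The 3 myogenic markers listed of 8 summed to 15.2 to 19.5 CPM in control and 24.3 to 31.3 CPM in senescent FAPs, and the 5 endothelial markers listed of 8 to 21.2 to 41.7 and 25.7 to 32.3 CPM. The 5 mural and Schwann cell markers listed of 6 summed to 16.1 to 30.9 and 63.3 to 75.8 CPM. At an adjusted p under 0.05 (limma), 4 of 5 leukocyte markers tested, 1 of 3 myogenic, 1 of 4 endothelial and 2 of 3 mural and Schwann were higher in senescent FAPs. Itgam, 1 of those 4, met the filter for testing (0.5 CPM in 3 libraries) only through the senescent libraries. It could thus be called only as higher, and its call adds nothing to this count. Of these lists, only the endothelial one had a marker lower, and of all genes 21.8% were higher and 24.3% lower. The myogenic one was Itga7, which encodes the α7-integrin that the sort selected against (11.1 ± 1.69 and 20.2 ± 4.05 CPM, SD, n = 3 each). The part of such cells in the results below was not tested.

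In senescent FAPs, the transcripts of the ligand Igf2 and of the binding proteins Igfbp5 and Igfbp6 were higher than in control FAPs, and the transcript of Igfbp4 was lower. Igf2 was 3.03-fold and Igfbp5 3.33-fold higher, Igfbp6 was 1.36-fold higher and Igfbp4 was at 0.524 of its control level, all on the scale of log2(CPM + 0.5). Igf1 and Igfbp3 were higher in each senescent culture than in the control culture with the same number, but the groups overlapped. Both receptors, Igfbp2 and Igfbp7 did not pass the test. At a Benjamini-Hochberg adjusted p under 0.05 over all genes tested (limma), 3 of the 10 members were thus higher and 1 lower, against a background of 21.8% of all genes higher and 24.3% lower, 46.1% in either direction, so the share of members called was near that of all genes. With the replicate number as a block, 5 were higher and 1 lower, against 24.2% and 26.7% of all genes, 50.9% in either direction. The 2 that passed with the block alone, Igf1 and Igfbp3, compare with 5.6% of all genes. The median log2 fold change of the members was 0.38, and that of all genes tested was −0.03. In bulk RNA, fewer cells that carry a transcript and less of it per cell cannot be told apart.

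**Figure D1:**
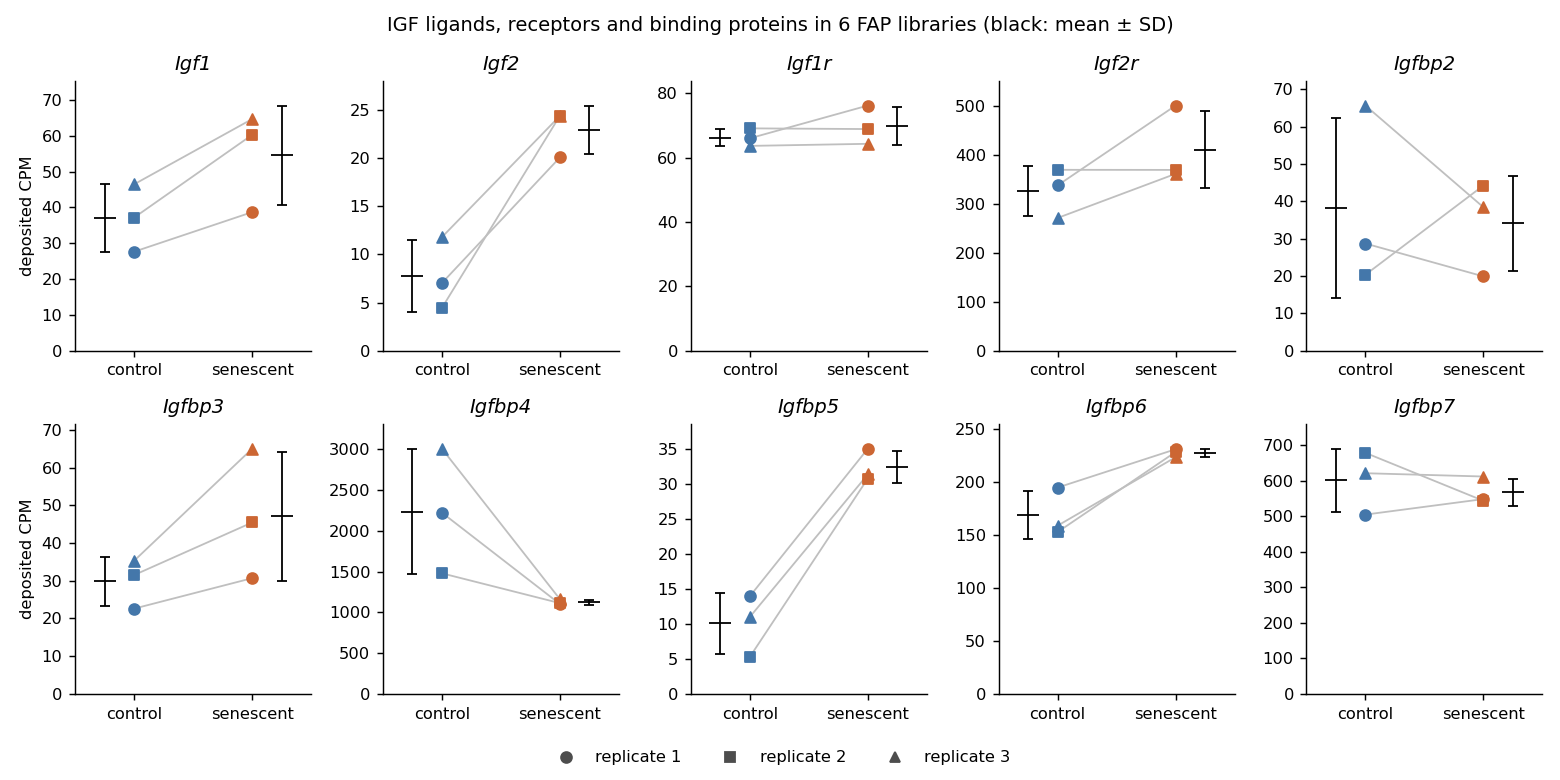
Deposited CPM (y axis, linear from 0) of each of the 10 members in control (blue) and senescent (orange) FAPs. Points are libraries, shapes give the replicate number, grey lines join equal numbers, and black marks give mean ± SD (n = 3). Igf2, Igfbp5 and Igfbp6 lie fully higher in senescent FAPs and Igfbp4 fully lower, while each grey line of Igf1 and Igfbp3 slopes up between overlapping groups.

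Igf2, a growth factor that is abundant in the fetus, had 7.03, 4.45 and 11.8 CPM in control cultures 1, 2 and 3 and 20.1, 24.4 and 24.4 CPM in senescent cultures 1, 2 and 3. Each senescent library was above every control library. The log2 fold change was 1.60 (standard error 0.30, limma adjusted p = 0.00422), and it lay between 1.28 and 1.94 when each library was left out in turn. Among all genes tested, 97.6% had a lower log2 fold change. Igfbp5, which binds both IGFs and also the extracellular matrix, had 13.9, 5.27 and 11.0 CPM in control cultures 1, 2 and 3 and 35.0, 30.7 and 31.3 CPM in senescent cultures 1, 2 and 3. The groups did not overlap, and control replicate 2 was the lowest library for both Igfbp5 and Igf2. The log2 fold change of Igfbp5 was 1.74 (standard error 0.30, limma adjusted p = 0.00322). Igf2 and Igfbp5 were the only members past the stricter cutoffs of the study when these were put on the limma fit. By them the unadjusted p must be below 0.01 and the log2 fold change above 1 or below −1. Of all genes, 10.8% met them in this fit, 6.93% upward and 3.9% downward. The study put them on edgeR results, which gave other numbers of genes. With both replicate 1 cultures left out, the log2 fold change was 1.67 for Igf2 and 1.95 for Igfbp5 (limma adjusted p = 0.0197 and 0.00569).

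Igfbp4, which binds IGFs and holds them from the receptor until PAPP-A cuts it, had 2222, 1478 and 3005 CPM in control cultures 1, 2 and 3 and 1102, 1112 and 1160 CPM in senescent cultures 1, 2 and 3. All senescent libraries lay within a narrow range below the lowest control library. Its log2 fold change was −0.93 (standard error 0.24, limma adjusted p = 0.0149). Without senescent replicate 2 the value was −0.92 with an adjusted p of 0.0533 (limma), and without senescent replicate 3 it was −0.95 with 0.0502. With both replicate 1 cultures left out it was −0.89 (limma adjusted p = 0.0702), and over all alternatives the adjusted p ran from 9.01e-05 to 0.0702. Against the culture of the same number, Igfbp4 was at 0.496, 0.753 and 0.386 of the control level in replicates 1, 2 and 3.

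Igfbp6, which prefers IGF2 over IGF1, had 195, 153 and 159 CPM in control cultures 1, 2 and 3 and 231, 229 and 224 CPM in senescent cultures 1, 2 and 3. The groups did not overlap. Among members, 3 had groups apart with senescent higher and 1 with senescent lower, against 26.5% and 30.9% of all genes tested, 57.4% in either direction. The rise was small, a log2 fold change of 0.44 (standard error 0.10, limma adjusted p = 0.00973), and its 95% interval ran from 0.21 to 0.67. The 4 members that passed the test varied less among senescent than among control cultures. The coefficient of variation in control and senescent FAPs was 48.0% and 10.9% for Igf2, 43.8% and 7.12% for Igfbp5, 34.2% and 2.78% for Igfbp4, and 13.5% and 1.67% for Igfbp6. Of the members that did not pass, Igfbp2 and Igfbp7 also varied less in senescent FAPs, while Igf1, Igf1r, Igf2r and Igfbp3 did not. Over genes in general, the chi-square per gene between pairs of libraries was 43.04 to 154.5 for control and 15.12 to 50.46 for senescent pairs. These ranges overlap, and the control pairs above the senescent range (108 and 154.5) were those with control replicate 2. This chi-square was computed on reads, so it also grows with depth. The difference in spread was not tested, since 3 libraries a group give a poor estimate of it.

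For 3 of these genes, the bases before a transcript start are shown, because their transcripts moved the most and in opposite directions. RefSeq promoter windows (GRCm38.p6) were found for all 10 members, 14 windows in all, since Igf2 has 4 annotated starts and Igfbp2 has 2. The 250 bases before each start were searched on both strands for TATAAA (the TATA box), GGGCGG (the GC box bound by Sp1), CCAAT (bound by NF-Y) and TGACTCA (bound by AP-1), and matches are in capitals. The lines give Igf2 before the start nearest to the 3′ end of the gene (chr7:142657497-142657746, minus strand), Igfbp5 (chr1:72874885-72875115, minus strand, without 19 bases that GENCODE M21 counts as exon) and Igfbp4 (chr11:99040994-99041243, plus strand), each 5′ to 3′.
Igf2: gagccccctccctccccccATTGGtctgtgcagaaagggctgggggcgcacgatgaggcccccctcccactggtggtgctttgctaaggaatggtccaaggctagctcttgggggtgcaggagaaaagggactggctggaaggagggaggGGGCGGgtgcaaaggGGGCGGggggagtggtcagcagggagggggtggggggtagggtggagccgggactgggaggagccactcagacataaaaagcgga
Igfbp5: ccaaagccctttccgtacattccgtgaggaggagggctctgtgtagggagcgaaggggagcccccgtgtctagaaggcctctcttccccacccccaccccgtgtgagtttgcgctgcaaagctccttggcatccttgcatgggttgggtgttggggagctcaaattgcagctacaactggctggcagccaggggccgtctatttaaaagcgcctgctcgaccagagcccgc
Igfbp4: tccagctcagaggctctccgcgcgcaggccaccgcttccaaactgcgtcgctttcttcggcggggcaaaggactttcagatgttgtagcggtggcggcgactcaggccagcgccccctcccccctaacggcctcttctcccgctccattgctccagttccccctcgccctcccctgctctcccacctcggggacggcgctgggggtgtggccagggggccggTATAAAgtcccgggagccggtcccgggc
The Igfbp4 window holds 1 TATAAA that begins 28 bases before the start, a motif found in 12.4% of the 32851 windows of all genes. The Igf2 window holds GGGCGG at 100 and 85 bases before the start and CCAAT, on the opposite strand, at 231 bases, motifs found in 32.7% and 33.8% of all windows. None of the 4 letter strings occurs in the Igfbp5 window. TGACTCA, found in 4.46% of all windows, occurs in 1 of the 14 member windows, 39 bases before the second start of Igfbp2. It lies there within 65 bases that GENCODE M21 counts as exon. Igfbp5 is annotated on chromosome 1 from 72857932 to 72874884 on the minus strand and Igfbp4 on chromosome 11 from 99041244 to 99054392 on the plus strand (GENCODE M21, GRCm38). These matches describe the letters only, and the gene-level values do not show which start of Igf2 was used.

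Igf2 lies on chromosome 7 from 142650766 to 142666816 on the minus strand (GENCODE M21, GRCm38, the same assembly as the mm10 build in the submitters' processing notes). The non-coding RNA gene H19 lies 72.6 kb away on the same strand. This pair shares enhancers and is imprinted in opposite ways, H19 being read from the maternal and Igf2 from the paternal copy. H19 had 409, 166 and 485 CPM in control cultures 1, 2 and 3 and 112, 77.1 and 74.5 CPM in senescent cultures 1, 2 and 3. It fell while Igf2 rose, with a log2 fold change of −1.89 (standard error 0.38, limma adjusted p = 0.00568). Within a library, the ratio of H19 to Igf2 CPM was 45.5 ± 11.1 (SD, n = 3) in control and 3.93 ± 1.43 (SD, n = 3) in senescent FAPs, a ratio that does not depend on the scaling between libraries. The parental copies were not told apart in these values. The gene model Gm49394 and the microRNA gene Mir483 overlap Igf2 on the same strand, so reads they share with it cannot be told apart by strand. Igf2os overlaps it on the opposite strand, and its reads could not be separated if strand was not used in counting.

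Igf1, the main mediator of growth hormone action and a growth factor of muscle, had 27.7, 37.2 and 46.5 CPM in control cultures 1, 2 and 3 and 38.7, 60.3 and 64.7 CPM in senescent cultures 1, 2 and 3. Senescent replicate 1 fell between control replicates 2 and 3, so the groups overlapped, and the log2 fold change of 0.55 did not pass the test (standard error 0.24, limma adjusted p = 0.0936). Within same-numbered cultures the senescent library was 1.40, 1.62 and 1.39 times the control library. With the replicate number as a block the standard error was 0.08 and Igf1 passed (limma adjusted p = 0.00203). Without senescent replicate 1 the change was 0.77 (limma adjusted p = 0.0241), and with both replicate 1 cultures left out it was 0.58 (0.0169). Over all alternatives the adjusted p ran from 0.00203 to 0.271. Igf1os overlaps the gene on the opposite strand and was not analysed here.

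Igfbp3, the main carrier of IGFs in blood together with the acid-labile subunit and a known target of p53, had the same order of replicates. It had 22.6, 31.5 and 35.3 CPM in control cultures 1, 2 and 3 and 30.7, 45.4 and 65.0 CPM in senescent cultures 1, 2 and 3. Replicate 1 was the lowest library of its group both times, as it was for Igf1. The log2 fold change was 0.61 (standard error 0.27, limma adjusted p = 0.102 without and 0.00341 with the replicate block). Without senescent replicate 1 the change was 0.88 (limma adjusted p = 0.0217), and over all alternatives the adjusted p ran from 0.00341 to 0.299. The ratio to the control library of the same number was 1.36, 1.44 and 1.84. All 3 same-numbered differences went one way in 5 members upward and 1 downward, which was the case for 33.8% and 38.8% of all genes tested, 72.6% in either direction.

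**Figure D2:**
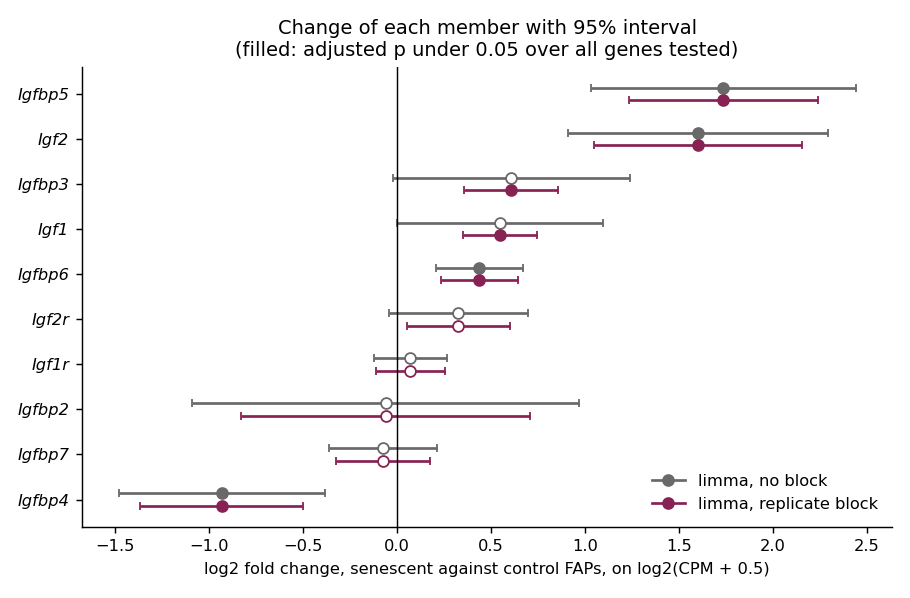
Log2 fold change of each member (x axis, senescent against control, on log2(CPM + 0.5)) with its 95% interval from limma without (grey) and with (purple) the replicate block, filled where the adjusted p is under 0.05. Igf1 (0.55) and Igfbp3 (0.61) are open in grey and filled in purple, and the intervals of Igf1r, Igfbp2 and Igfbp7 span 0 in both fits.

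The receptor transcripts did not pass the test. Igf1r had 66.0, 69.1 and 63.6 CPM in control cultures 1, 2 and 3 and 76.1, 68.8 and 64.3 CPM in senescent cultures 1, 2 and 3, and the groups overlapped. Its log2 fold change was 0.07 with a 95% interval from −0.12 to 0.27 (limma adjusted p = 0.510). Igf2r had 337, 369 and 271 CPM in control cultures 1, 2 and 3 and 500.5, 369 and 361 CPM in senescent cultures 1, 2 and 3. Only senescent replicate 1 was above the control range. The log2 fold change was 0.33, with a 95% interval from −0.04 to 0.70 (limma adjusted p = 0.131, and 0.0510 with the replicate block). Igf2r is overlapped on the opposite strand by Airn, the non-coding RNA that silences its paternal copy, which had 2.08 to 5.89 CPM in control and 2.10 to 6.01 CPM in senescent FAPs.

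Igfbp2, a binding protein that also carries an integrin-binding motif, had the highest coefficient of variation of the members in both groups, 63.1% and 37.2%. It had 28.7, 20.3 and 65.6 CPM in control cultures 1, 2 and 3 and 19.9, 44.2 and 38.4 CPM in senescent cultures 1, 2 and 3. Control replicate 3 was above all senescent libraries and senescent replicate 1 below all control libraries, with the other 4 between them. The log2 fold change was −0.06 and its 95% interval ran from −1.09 to 0.97 (limma adjusted p = 0.922). A change within that interval, in either direction, is thus not excluded by these libraries. Igfbp2 and Igfbp5 are neighbours on chromosome 1, tail to tail with 5.46 kb between their ends, and only Igfbp5 passed the test. Within a library, the ratio of Igfbp5 to Igfbp2 CPM was 0.485, 0.259 and 0.167 for control numbers 1 to 3 and 1.76, 0.695 and 0.815 for senescent numbers 1 to 3. Igfbp7, a relative with low affinity for IGFs, had 505, 679 and 622 CPM in control cultures 1, 2 and 3 and 549, 544 and 612 CPM in senescent cultures 1, 2 and 3. Its log2 fold change was −0.07, with a 95% interval from −0.36 to 0.21 (limma adjusted p = 0.651).

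To compare levels between genes, CPM were divided by the length of the exons of each gene in GENCODE M21, which may differ from the annotation used for counting. Per kb of exon, Igfbp4 and Igfbp7 led in control FAPs, with 506 ± 173 and 498 ± 73.3 CPM per kb (SD, n = 3 each), and their libraries overlapped. In senescent FAPs they had 255 ± 7.07 and 470 ± 31.6 CPM per kb (SD, n = 3 each), and every library had more Igfbp7 than any had Igfbp4. Igfbp6 came next in both groups, with 152 ± 20.4 and 205 ± 3.43 CPM per kb (SD, n = 3 each). Igf2r (35.0 ± 5.39 and 44.1 ± 8.41), Igfbp2 (20.7 ± 13.1 and 18.5 ± 6.88) and Igfbp3 (9.52 ± 2.08 and 15.0 ± 5.50 CPM per kb, SD, n = 3 each) followed in that order. Libraries of Igfbp2 and Igfbp3 overlapped in both groups, and those of Igf2r and Igfbp2 in control FAPs. Igf1r, Igf1, Igfbp5 and Igf2 were the lowest, between 1.36 ± 0.651 (Igf2) and 3.94 ± 0.163 (Igf1r) CPM per kb in control FAPs and between 4.01 ± 0.436 (Igf2) and 5.51 ± 1.40 (Igf1) CPM per kb in senescent FAPs (SD, n = 3 each). Igf2 was last in both groups by its mean, but its libraries overlapped those of the next gene, Igfbp5 in control and Igf1r in senescent FAPs.

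**Figure D3:**
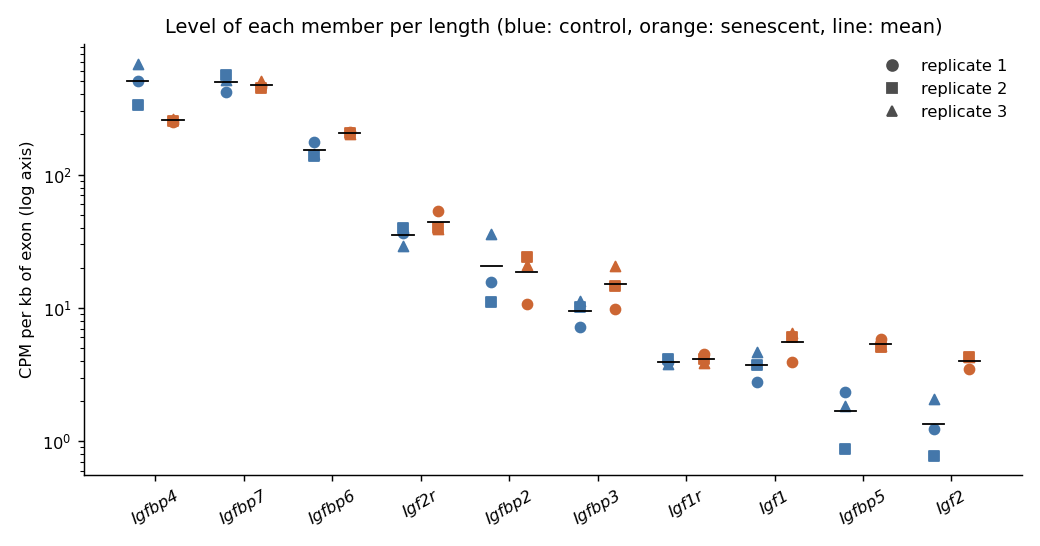
CPM per kb of exon (y axis, log scale) of the 10 members in control (blue) and senescent (orange) FAPs, ordered by the control mean. Points are libraries, shapes give the replicate number, and lines are means. Igfbp4 drops below Igfbp7 in senescent FAPs (255 against 470 CPM per kb), while Igf2 and Igfbp5 move up toward Igf1 and Igf1r.

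The shares of the binding proteins in their summed transcripts were also compared, with no test. The 6 binding proteins summed to 2987, 2367 and 3898 CPM in control cultures 1, 2 and 3 and to 1967, 2005 and 2131 CPM in senescent cultures 1, 2 and 3. Igfbp4 made up 71.3 ± 7.80% of this sum in control and 55.3 ± 0.790% in senescent FAPs (SD, n = 3 each), a share of CPM not corrected for length. Without Igfbp4 the other 5 summed to 849 ± 72.5 and 910 ± 54.6 CPM (SD, n = 3 each). The share of Igfbp6 was 5.69 ± 1.39% and 11.2 ± 0.648%, that of Igfbp5 0.323 ± 0.127% and 1.59 ± 0.163%, and that of Igfbp3 0.998 ± 0.298% and 2.29 ± 0.745% (SD, n = 3 each). The share of Igfbp7 was 20.5 ± 7.09% in control and 27.9 ± 0.806% in senescent FAPs (SD, n = 3 each), although its own CPM did not pass the test. With Igfbp4 left out of the sum, the share of Igfbp7 was instead lower in senescent FAPs, by −8.21 percentage points. Igfbp2 had 1.17 ± 0.450% and 1.67 ± 0.608% (SD, n = 3 each). The summed CPM of the ligands Igf1 and Igf2 was 44.9 ± 12.1 in control and 77.5 ± 16.4 in senescent FAPs (SD, n = 3 each), and the ratio of Igf2 to Igf1 within a library was 0.209 ± 0.0775 and 0.434 ± 0.0751 (SD, n = 3 each).

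**Figure D4:**
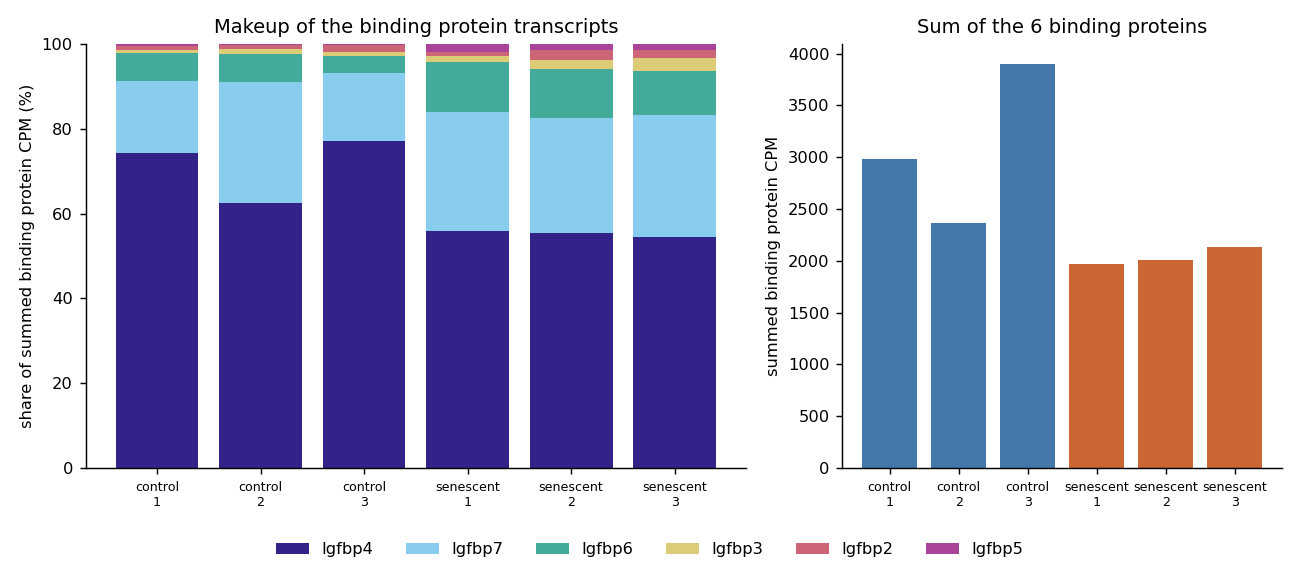
Left, the share of each binding protein in the summed CPM of the 6 (y axis, %) in each library. Right, that sum in CPM for control (blue) and senescent (orange) FAPs. Igfbp4 takes 62.4% to 77.1% in control and 54.4% to 56.0% in senescent libraries, and the sum is lower in every senescent library.

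Among the partners and proteases of the binding proteins, 1 of 9 genes tested was higher and 2 were lower, against 21.8% and 24.3% of all genes. With the replicate block 2 were higher and 2 lower, the added gene being Prss23, which encodes a secreted serine protease (log2 fold change 0.39, limma adjusted p = 0.0604 without and 0.0152 with the block). Pappa, which encodes the protease PAPP-A that frees IGFs from IGFBP4, had 204 ± 21.8 CPM in control and 244 ± 59.3 CPM in senescent FAPs (SD, n = 3 each) and did not pass the test (log2 fold change 0.23, standard error 0.17, limma adjusted p = 0.276). The ratio of Pappa to Igfbp4 CPM was 0.0974 ± 0.0270 in control and 0.217 ± 0.0574 in senescent FAPs (SD, n = 3 each). Its divisor, Igfbp4, was lower in every senescent library. Pappa itself was above the control range only in senescent replicate 1, with 312, 214 and 206 CPM in senescent cultures 1, 2 and 3. Adam12, a metalloproteinase that can cleave IGFBP3 and IGFBP5, fell from 430 ± 35.7 to 122 ± 49.3 CPM (SD, n = 3 each), a log2 fold change of −1.88 (standard error 0.24, limma adjusted p = 0.000927). The secreted serine proteases of the HTRA family, which carry an IGFBP-like domain, did not move together. Htra3 had 49.7 ± 7.61 and 59.4 ± 3.74 CPM (SD, n = 3 each) and did not pass the test (log2 fold change 0.26, limma adjusted p = 0.109). Htra1 fell by 0.96 on the log2 scale from 214 ± 55.2 to 107 ± 9.80 CPM, and Htra4 rose by 1.80 from 2.34 ± 0.527 to 9.38 ± 1.53 CPM (SD, n = 3 each). Igfals, which encodes the acid-labile subunit, was not analysed here.

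Of 11 further genes with an IGFBP domain, 8 were tested, with 2 higher and 2 lower (46.1% of all genes passed in either direction) and a median log2 fold change of −0.002. Wisp1 and Cyr61, matricellular genes of the CCN family, fell by 1.11 and 0.60 on the log2 scale (limma adjusted p = 0.000184 and 0.00432). Ctgf, Nov and Wisp2 of the same family did not pass the test, with log2 fold changes of 0.11, 0.14 and −0.26. Kazald1 rose by 0.93 (limma adjusted p = 0.00666). Esm1, which encodes the proteoglycan endocan, rose by 2.66, but its groups overlapped, with 0.491, 9.60 and 2.01 CPM in control cultures 1, 2 and 3 and 6.14, 26.8 and 34.5 CPM in senescent cultures 1, 2 and 3, and the limma adjusted p of 0.0422 ran from 0.00176 with the replicate block to 0.145 without senescent replicate 3. Igfbp1 was not analysed here. Of the 3 Igf2 mRNA-binding proteins, which bind and stabilise Igf2 and other transcripts, Igf2bp2 fell by 0.35 (limma adjusted p = 0.0165, and 0.271 when values were divided by library totals alone), and Igf2bp1 and Igf2bp3 did not pass the test.

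Among 15 tested genes of the insulin receptor, its substrates and adaptors, 4 were higher and 3 lower, a share near the 46.1% of all genes called, and the list's median log2 fold change was 0.08. The inhibitory adaptors of the insulin and IGF1 receptors moved in opposite directions. Grb14 rose from 4.69 ± 0.809 to 16.0 ± 1.78 CPM (SD, n = 3 each), a log2 fold change of 1.67 (standard error 0.15, limma adjusted p = 0.000307). Grb10, which is also imprinted, fell from 368 ± 105 to 164 ± 27.2 CPM (SD, n = 3 each), a log2 fold change of −1.13 (standard error 0.22, limma adjusted p = 0.00551). Irs2, a docking protein of both receptors, fell from 15.6 ± 0.358 to 10.1 ± 1.21 CPM (SD, n = 3 each), while Irs1 had 53.0 ± 9.35 and 51.9 ± 1.95 CPM (SD, n = 3 each; limma adjusted p = 0.939). Ptpn1, the phosphatase that switches these receptors off, fell by 0.75 on the log2 scale, and the adaptors Gab1 and Shc2 rose by 0.60 and 0.48. The adjusted p of Shc2, 0.0206 (limma), ran up to 0.0698 when single libraries were left out. Insr itself had 33.0 ± 1.17 CPM in control and 37.9 ± 0.767 CPM in senescent FAPs (SD, n = 3 each). Its groups did not overlap and its adjusted p was 0.0582 (limma).

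Of 32 tested genes of the PI3K-AKT-TOR arm, 7 were higher and 6 lower, against 21.8% and 24.3% of all genes, with a median log2 fold change of −0.06. With the replicate block the counts were again 7 and 6, but Pik3cd, a catalytic subunit of PI3-kinase, no longer passed (limma adjusted p = 0.0380 without and 0.0554 with the block) and Pik3cb, another, did (0.215 and 0.0374). The genes with the smallest p that rose were Pik3r3, a regulatory subunit of PI3-kinase (log2 fold change 0.56), Deptor, an inhibitor of the kinase mTOR (0.94), and Foxo1, a transcription factor that AKT keeps out of the nucleus (0.73). Those that fell were Eif4ebp1 and Eif4ebp2, translation repressors that mTOR inactivates (Eif4ebp1 to 0.501 of its control level, Eif4ebp2 by 0.42 on the log2 scale), and Akt1 (−0.35). Eif4ebp2 and Akt1 did not pass when values were divided by library totals alone (limma adjusted p = 0.10 and 0.265). In the growth hormone axis, which drives Igf1 in liver and other tissues, none of 8 genes tested was higher and 2 were lower, against 21.8% and 24.3% of all genes. With the replicate block 4 were lower, the added genes being Jak2, the kinase bound to the growth hormone receptor (limma adjusted p = 0.0928 without and 0.0415 with the block), and Socs1, an inhibitor of such kinases (0.0563 and 0.0386). The feedback inhibitors Socs2 and Socs3 fell by 0.67 and 1.12 on the log2 scale (limma adjusted p = 0.00219 and 0.00222). The growth hormone receptor gene Ghr had 65.6 ± 16.5 and 78.2 ± 10.5 CPM (SD, n = 3 each) and did not pass the test (limma adjusted p = 0.247).

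**Figure D5:**
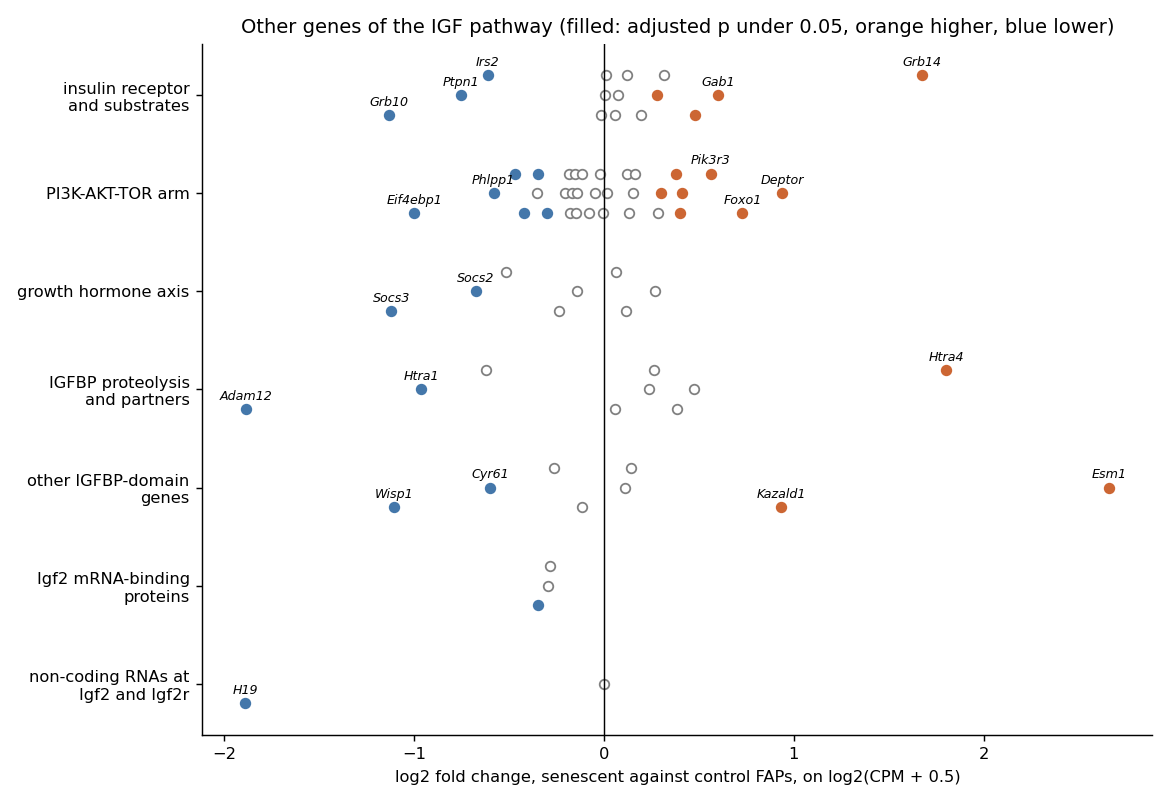
Log2 fold change (x axis, senescent against control, on log2(CPM + 0.5)) of the other pathway genes tested, 1 point a gene, by list, filled orange where higher and blue where lower at an adjusted p under 0.05. Called genes lie on both sides of 0 in the receptor substrate and PI3K-AKT-TOR lists, with Grb14 (1.67) and Grb10 (−1.13) at the ends of the first.

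Over the 6 libraries, the genes whose log2 values followed a member most closely were, for Igf2, Klhl28, Serpina3g and Pamr1 (Pearson r of 0.999, 0.999 and 0.998), and for Igfbp5, Oplah, Ppp1r3c and Armc7 (0.998, 0.996 and 0.994). For Igfbp4 they were Fras1, Swsap1 and Enah (0.998, 0.996 and 0.995), and for Igf1 Gm15698, Epm2aip1 and AV026068 (0.995, 0.995 and 0.994). With 6 points in 2 groups and 14777 genes to choose from, such values are a description of likeness in these libraries only. Gm15698, the closest to Igf1, had 0.491, 2.51 and 10.3 CPM in control cultures 1, 2 and 3 and 4.65, 28.7 and 35.1 CPM in senescent cultures 1, 2 and 3, low in replicate 1 of both groups as Igf1 was.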

How the data were processed

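RNA of 3 control and 3 senescent FAP cultures was prepared with a stranded mRNA kit and sequenced, and each library was grouped by its sample label. Per the submitters' processing notes, the authors used edgeR 3.10 in R 3.6.0 and the build mm10. The aligner, the counting tool, its strand setting and the filter on low counts are not given in the sources used here. The deposited signal is CPM divided by edgeR's effective library size, and its factors were those of TMM. Dividing by the worth of 1 read gave whole numbers for 100% of the values, with a tolerance of 0.01 read.

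All 16895 listed genes were kept, and the 14777 that reached 0.5 CPM in 3 or more of the 6 were tested with limma 3.58.1 (R 4.3.3) on log2(CPM + 0.5), two-sided, with a variance trend and Benjamini-Hochberg adjustment over all of them. This scale understates changes of low genes. The plan named the unit CPM, and the test was kept for the scaled signal. The members and gene lists were chosen with earlier results of these data known. Genes were named from each list as the 3 with the smallest p in each direction among those past the threshold, and from the whole table as the 3 with the highest correlation with Igf1, Igf2, Igfbp5 and Igfbp4, plus Insr, Irs1, Irs2, Pappa, Igfals, Igfbp1, H19 and Ghr. Thy1, Lum, other markers, Airn, Ctgf, Nov, Wisp2 and Htra3 were named after their values were seen. So were the genes called in only 1 of the fits with and without the block. Same-numbered cultures deviated together (r = 0.537, 0.308 and 0.207 for numbers 1, 2 and 3, against a limit of 0.1). For different numbers r ran from −0.357 to 0.153, of which control 2 with senescent 3 was above that limit. A fit with the replicate number as a block is thus given where it changes the call of a member or of a non-marker list gene. This pairing rests on the same values that the fit uses, since the labels do not state one. The alternatives changed the pseudocount (0.1 or 1) or the filter (none, or 2 CPM), or used median-of-ratios scaling, library totals alone, the count models of edgeR 4.0.16 or DESeq2 1.42.0, no variance trend, or 1 library fewer, and, added after the values were seen, 4 libraries without both replicate 1 cultures. The fits were also run on simulated counts with a common dispersion and no replicate effect. That setting is simpler than these libraries, so it gives no measure of the error rates here.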

Additional observations from a re-analysis of the deposited data

How the results depend on the processing

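The directions of Igf2, Igfbp5, Igfbp6 and Igfbp4 held under all alternatives, and so did the calls of Igf2, Igfbp5 and Igfbp6. The number of members past the threshold was 5 higher with the replicate block, with DESeq2 and with both replicate 1 cultures left out, and it ranged from 3 to 5 higher and from 0 to 1 lower when each library was left out. With both replicate 1 cultures left out, 0 members were lower, because Igfbp4 had an adjusted p of 0.0702 (limma). The call was lost without senescent replicate 2 or 3 as well, and 5 members were higher without senescent replicate 1. Division by library totals alone shifted the median log2 fold change of all genes by 0.20. It then put 7 members higher, with 4993 genes higher and 1930 lower in all, against 3219 and 3592 with the deposited scaling. Relative to that shift, the changes of Igf1r (0.28) and Igf2r (0.54) that passed there are close to those with the deposited scaling. Leaving out each library gave 2130 to 3406 genes higher, the fewest without senescent replicate 2. The replicate block changed the calls of Igf1 and Igfbp3 and of no other member. Single values of the other named genes stayed on their side of the threshold in 436 cases, lost the call in 18 (Esm1, Shc2, Igf2bp2, Akt1 and Eif4ebp2) and gained it in 5.

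The shares of the binding proteins depended on what they were shares of. Per kb of exon, the change from control to senescent FAPs was 0.417 percentage points for Igfbp5 and 8.20 for Igfbp6, against 1.27 and 5.53 in CPM. With Igfbp4 left out of the sum, it was −0.728 for Igfbp2, 2.36 for Igfbp5 and −8.21 for Igfbp7, the last against 7.41 with Igfbp4 in the sum. With the length of the longest transcript in place of all exons, Igf1r ranked 8 and Igfbp5 ranked 9 among the members in senescent FAPs, the other way round than with all exons.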
